A study of Mus musculus with 18 samples.

Results

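Macrophages that had been exposed to lipopolysaccharide (LPS) for 10 min were compared with macrophages exposed to it for 30 min, without added IL-10. The members are the arrays labelled as LPS alone at those times, 3 at 10 min and 3 at 30 min, which are 6 of the 18 arrays of the series, and the comparison covers all probe sets. All cells were IL-10-/- mouse macrophages, derived from marrow over 7 days in DMEM with serum and with CSF-1 from L-cell conditioned medium. Every group, the 10 min group included, carried the IL-10 deletion and received LPS at 100 ng/ml in medium without CSF-1, and the 9 arrays of LPS plus IL-10 also received the cytokine at 10 ng/ml. The numbers 1, 2 and 3 of the labels mark 3 complete, sequential experiments in age- and sex-matched animals, called experiments 1, 2 and 3 here. Untreated cells and cells with an intact Il10 gene were not analysed here, so a rise from 10 to 30 min cannot be told apart from a change of handling or medium that every culture shared.

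LPS is sensed on macrophages by Toll-like receptor 4, which acts through adaptor proteins to release NF-kB from its inhibitors and to activate the MAP kinases. Genes that need no new protein, the primary response genes, are transcribed first: chemokines and Tnf, immediate early transcription factors, and feedback genes whose products shut the same pathways off again. The target genes of interferon follow later, since they need proteins made in the first wave.

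All values are Affymetrix signals, on a linear scale that the deposited values came with, and a change is given as a difference on the log2(signal + 16) scale, where 16 is added to damp the noise of dim probe sets and understates their change. A positive log2 fold change means a higher signal at 30 min. The 6 arrays had a trimmed mean of 500, a median signal of 76.7 to 92.9 and 3' to 5' signal ratios of 0.762 to 0.838 for Gapdh. The labelled cell type was checked against 14 macrophage markers, all of which lay above the array's median on all 6 arrays, with summed signals of 220292 to 323060 at 10 min and 219262 to 293979 at 30 min. The summed signals of 9 granulocyte markers were 6079 to 12734 and 5970 to 14139, those of 9 lymphocyte markers were 310 to 612 and 388 to 484, and those of 10 stromal markers were 4670 to 8671 and 4953 to 8169. For 6 erythroid markers the sums were 6030 to 8409 and 5785 to 8501, and for 10 dendritic cell markers 2510 to 5208 and 2508 to 5650. Most of the erythroid sum was Tfrc, with 5501 to 8328. Of the granulocyte markers 8 of 9 also reached the median on all arrays of each time. At 10 and 30 min 6 and 5 of 10 stromal and 3 and 4 of 10 dendritic cell markers did. Only 1 of 9 lymphocyte and 1 of 6 erythroid markers did at each time. Reaching the median was thus not particular to the macrophage markers. On each gene's brightest probe set, limma called no tested marker of these cell types between the times, none having an unadjusted p under 0.05. Another probe set of the macrophage marker Ctsb, with a log2 fold change of 0.60, did fall under that threshold but was not called. The ranges of the 2 times overlapped for every list.

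Between 10 and 30 min, 29 of 27110 tested probe sets rose (0.107%) and 1 fell (0.00369%) at a limma adjusted p under 0.05 with the experiment as a block, that is, with each 30 min array set against the 10 min array of its own experiment. The risers were 27 probe sets of 21 named genes and 2 probe sets without a gene name, and the faller was Neat1. They were chemokine and cytokine genes (Cxcl1, Cxcl2, Tnf, Ccl3, Tnfsf9), feedback genes of NF-kB and the MAP kinases (Nfkbiz, Tnfaip3, Traf1, Dusp1, Dusp5), the inflammatory enzyme genes Ptgs2 and Pde4b, immediate early genes (Ier2, Ier3, Btg2, Ppp1r15a), Zfp36, Socs3, Rgs1, Ccrl2 and Gm6377. The log2 fold changes of the 29 ran from 0.88 to 3.28, with a median of 1.55, against a median of -0.02 over all tested probe sets. All 29 were higher in each of the 3 experiments, which held for 11.6% of tested probe sets, and in 26 of the 29 every 30 min array was above every 10 min array, which held for 2.03%. The 29 were picked for their change on these same arrays, so both counts follow largely from that choice and are no separate support. The block matters for the count: without it 5 probe sets rose (0.0184%), those of Cxcl2, Dusp1, Ier3, Pde4b and Socs3 (brightest probe set), and limma called no fall. At an unadjusted p under 0.05 the blocked fit gave 369 probe sets that were higher and 636 that were lower, and the fit without the block 128 and 238. In both fits these are together a smaller share of the 27110 tested than a threshold of 0.05 would give without any change. They are therefore no sign of a broad change.

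**Figure D1:**
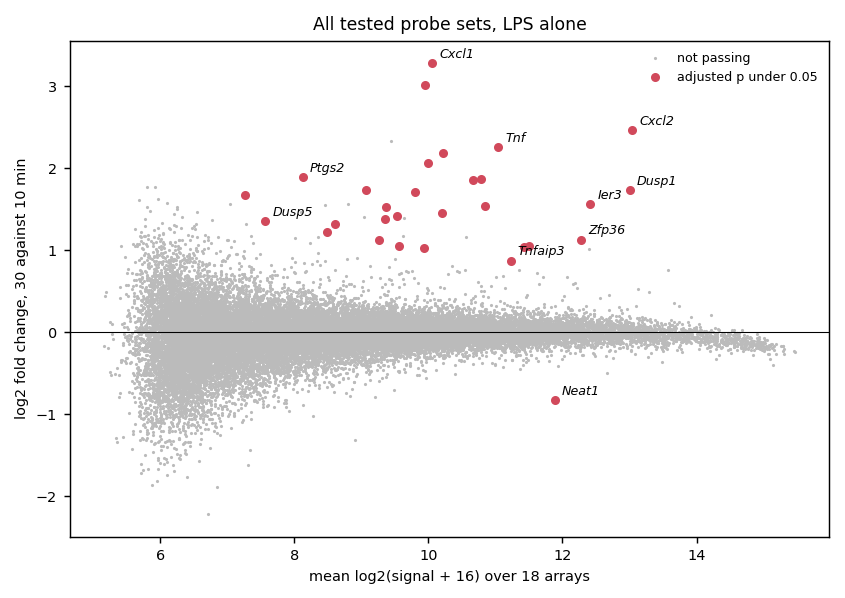
Each point is 1 of the 27110 tested probe sets, with its mean log2(signal + 16) over 18 arrays on the horizontal axis and its log2 fold change from 10 to 30 min of LPS alone on the vertical axis. The 30 called probe sets are coloured: 29 lie above 0, at mean values from 7.27 (an unnamed probe set) to 13.04 (Cxcl2), and 1, Neat1, lies below.

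Stretches of sequence just before the transcription starts of 7 of the risers are shown first, because these genes span the groups described next: chemokines (Cxcl1, Cxcl2), a cytokine (Tnf), MAP kinase phosphatases (Dusp1, Dusp5), an NF-kB inhibitor (Tnfaip3) and a cytokine signalling inhibitor (Socs3). Each is the 200 bases before a RefSeq start in build GRCm38.p6, 5′ to 3′ on the strand of the gene, and capitals mark matches, on either strand, to motifs named for the factors that bind such sequences: kappa B (GGNNNTTCC or GGNNNTCCC), the cAMP response element CRE (TGACGTCA), AP-1 (TGANTCA), the CArG box of serum response factor, STAT (TTCNNNGAA) and the TATA box (TATAAA). The positions are chr5:90891045-90891244 on the plus strand for Cxcl1, chr5:90903699-90903898 on the plus strand for Cxcl2, chr17:35202008-35202207 on the minus strand for Tnf, chr17:26508473-26508672 on the minus strand for Dusp1, chr19:53528945-53529144 on the plus strand for Dusp5, chr10:19015411-19015610 on the minus strand for Tnfaip3 and chr11:117969367-117969566 on the minus strand for Socs3.
Cxcl1: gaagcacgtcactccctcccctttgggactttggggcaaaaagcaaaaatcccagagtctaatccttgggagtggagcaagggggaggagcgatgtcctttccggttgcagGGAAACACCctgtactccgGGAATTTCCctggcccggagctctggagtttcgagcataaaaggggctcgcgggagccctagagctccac
Cxcl2: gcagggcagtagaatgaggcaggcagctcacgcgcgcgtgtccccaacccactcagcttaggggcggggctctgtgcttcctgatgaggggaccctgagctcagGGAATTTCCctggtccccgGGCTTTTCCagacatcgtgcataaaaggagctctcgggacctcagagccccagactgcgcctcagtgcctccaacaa
Tnf: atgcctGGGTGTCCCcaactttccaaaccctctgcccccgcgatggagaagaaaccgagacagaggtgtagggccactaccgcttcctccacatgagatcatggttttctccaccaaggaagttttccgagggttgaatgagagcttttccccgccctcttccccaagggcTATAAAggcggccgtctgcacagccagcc
Dusp1: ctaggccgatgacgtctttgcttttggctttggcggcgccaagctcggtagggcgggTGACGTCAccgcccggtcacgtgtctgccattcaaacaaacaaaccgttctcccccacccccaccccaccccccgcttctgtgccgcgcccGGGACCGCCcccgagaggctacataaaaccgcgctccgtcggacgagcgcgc
Dusp5: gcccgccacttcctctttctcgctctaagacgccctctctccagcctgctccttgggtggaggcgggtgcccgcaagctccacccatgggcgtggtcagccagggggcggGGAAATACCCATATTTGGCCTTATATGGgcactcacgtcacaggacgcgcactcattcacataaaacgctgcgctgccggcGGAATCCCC
Tnfaip3: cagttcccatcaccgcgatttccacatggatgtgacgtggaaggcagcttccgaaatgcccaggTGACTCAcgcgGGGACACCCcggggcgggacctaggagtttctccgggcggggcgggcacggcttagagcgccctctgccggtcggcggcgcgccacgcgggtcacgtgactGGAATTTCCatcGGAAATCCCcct
Socs3: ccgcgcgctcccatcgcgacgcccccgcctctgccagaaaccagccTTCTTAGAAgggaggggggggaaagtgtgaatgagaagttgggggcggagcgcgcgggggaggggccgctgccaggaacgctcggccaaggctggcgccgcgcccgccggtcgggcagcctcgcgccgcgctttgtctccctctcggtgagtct

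In Cxcl1 and Cxcl2 the same 9 letters, GGAATTTCC, matched the kappa B motif, beginning 70 bases before the start in Cxcl1 and 96 bases before it in Cxcl2. The Tnfaip3 stretch held these letters too, 24 bases before its start, together with an AP-1 match. Dusp1 held a complete CRE 143 bases before its start and Dusp5 a pair of CArG boxes, 82 and 72 bases before its start, of which the farther one shares 1 base with a kappa B match. Socs3 was the gene of these 7 without a kappa B match, and it held a STAT match 154 bases before its start. Over the RefSeq windows of 300 bases (250 before and 50 after a start), which covered 17 of the 22 called genes in 23 windows, a kappa B match in either form lay in 14 of 17 genes and in 16 of 23 windows, against 31.4% of all 32851 windows. A CRE lay in windows of 3 of the 17 genes (Dusp1, Btg2, Ppp1r15a; 1.79% of all windows) and a CArG box in those of 2 (Dusp5, Zfp36; 1.63%). An AP-1 match lay in those of 1 (Tnfaip3; 7.81%) and a STAT match in those of 3 (Socs3, Pde4b, Zfp36; 8.3%). A gene with several windows has more chances of a match than a single window, and a match describes letters, not bound factors. No window was found in the table used for Nfkbiz, Ier2, Tnfsf9, Rgs1 and Neat1.

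The neutrophil chemokine genes Cxcl1 and Cxcl2 had the highest log2 fold changes of the called genes. Cxcl1, which encodes a chemokine that draws neutrophils, had signals of 415, 426 and 259.9 at 10 min in experiments 1, 2 and 3, and of 2890.5, 7299 and 2264 at 30 min. Every 30 min array was far above every 10 min array, and experiment 2 gave by far the highest value. Its log2 fold change was 3.28 (SE 0.27, n = 3 arrays a time, limma adjusted p = 3.27e-06), a ratio of mean signals of 11.3. The other probe sets of Cxcl1 rose as well, by 3.02 and 1.43, so all 3 were called but with unequal slopes. Cxcl2, a related neutrophil chemokine gene, was bright from the start, with 4970, 3295 and 2619.8 at 10 min and 17488, 23138 and 18047 at 30 min. The 3 experiments ended close together at 30 min although experiment 1 began highest, and the rise was 2.46 on the log2 scale (SE 0.19, adjusted p = 3.27e-06).

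Tnf, the gene of the inflammatory cytokine TNF, had signals of 3157, 1438 and 334 at 10 min and 7736, 9683 and 2339.8 at 30 min. At 10 min its experiments differed more than those of any other riser, by a factor of 9.44 between the highest and the lowest array, and the 30 min array of experiment 3 was below the 10 min array of experiment 1, so the groups overlapped. Within each experiment Tnf was higher at 30 min, by ratios of 2.45, 6.73 and 7, and the blocked log2 fold change was 2.26 (SE 0.23, adjusted p = 6.70e-05, against 1 without the block). Ccl3, which encodes the chemokine MIP-1 alpha, had 2249.5, 1752 and 1389 at 10 min and 3183, 6112 and 2512 at 30 min, and the lowest 30 min array was just above the highest 10 min array. Its rise was 1.05 (SE 0.19, adjusted p = 0.032). Tnfsf9, the gene of the T cell costimulator 4-1BB ligand, had 731, 280.3 and 338 at 10 min and 1225.5, 1889 and 772 at 30 min, with little separation of experiment 3 from the 10 min array of experiment 1, and rose by 1.52 (adjusted p = 0.00721).

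Gene lists are described by the brightest probe set of each gene, of which 0.16% rose and 0.00798% fell over all 12527 genes tested, while 44.6% had a higher and 55.4% a lower value at 30 min. Of the 30 chemokine and cytokine genes listed, 22 had a tested probe set. These 5 rose and none fell, 17 of 22 had a higher value, and the median log2 fold change was 0.42, against -0.02 over all genes tested. Il1b, the gene of interleukin-1 beta, had 129, 226 and 370.1 at 10 min and 256, 1049 and 1167 at 30 min. It was higher in each experiment, but the 10 min array of experiment 3 exceeded the 30 min array of experiment 1, and its log2 fold change of 1.55 (SE 0.31) did not pass (adjusted p = 0.0857), though it did on the 6 arrays alone (0.00397). The CC chemokine genes Ccl7 (1.16), Ccl4 (0.75) and Ccl2 (0.59) had higher values without passing. For Ccl2 the experiments lay farther apart than the times, with 8465, 3769.6 and 1160.5 at 10 min and 8958, 7941 and 1802.5 at 30 min. The Il10 probe set gave 0.71 and did not pass (adjusted p = 0.195). The cells lack functional IL-10, and the position of its probes relative to the deletion was not known here.

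**Figure D2:**
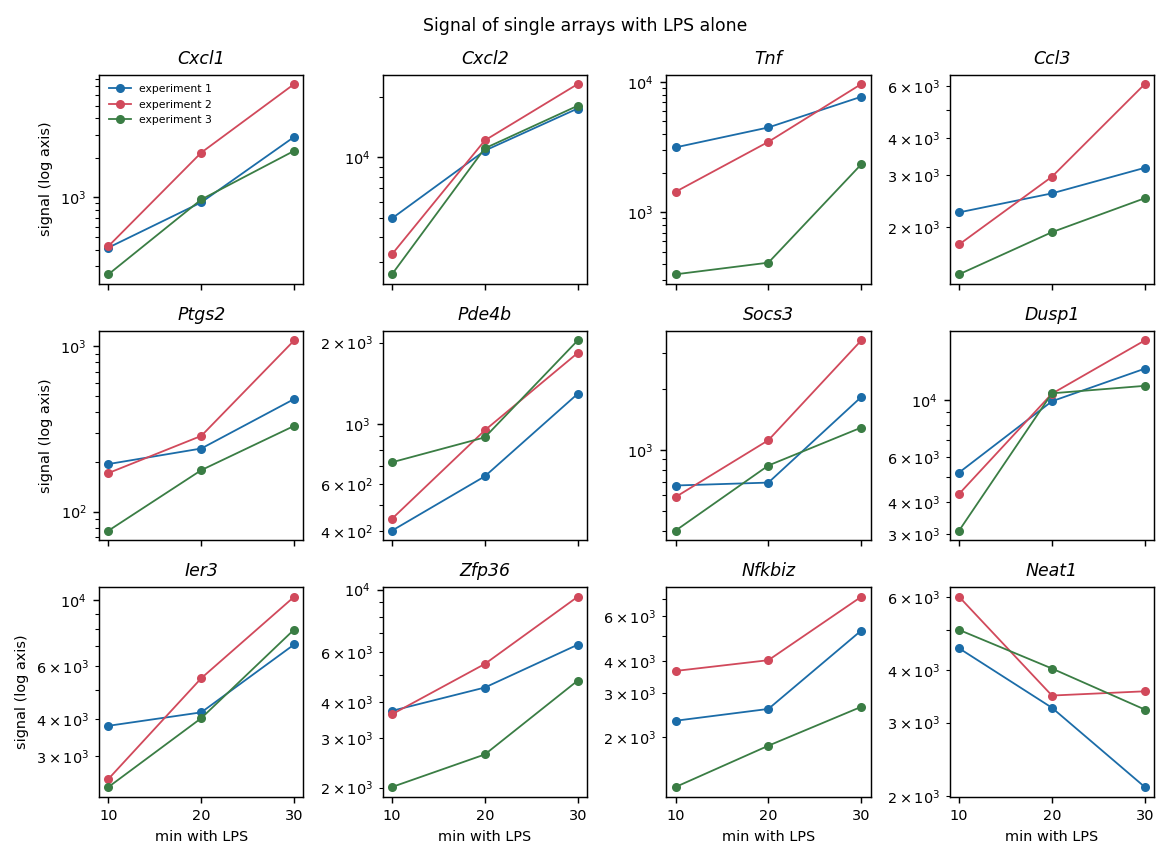
Signals of single arrays with LPS alone at 10, 20 and 30 min for 12 genes, on a log axis, with 1 coloured line for each experiment. Neat1 falls and the other 11 genes climb in every experiment from 10 to 30 min, and the lines of Tnf lie farthest apart, while those of Cxcl2 and Dusp1 run close together.

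Ptgs2 and Pde4b were the risers among the genes of prostaglandin synthesis, cAMP and coagulation. Ptgs2, which encodes the inducible cyclooxygenase, had low signals of 194, 171 and 76.8 at 10 min and 479, 1082 and 329.6 at 30 min, so that all 30 min arrays were above all 10 min arrays. It rose by 1.90 (SE 0.34, adjusted p = 0.0267), while a dimmer second probe set gave 0.39 and did not pass. Pde4b, which encodes a phosphodiesterase that degrades cAMP, had 402, 445 and 721 at 10 min and 1293, 1832 and 2039 at 30 min. Experiment 3 was highest at both times, unlike in most risers, and the rise was 1.71 (SE 0.14, adjusted p = 3.27e-06). The 3 other probe sets of Pde4b gave 0.65, 0.65 and 0.00 and did not pass, so the size of its change depends on the probe set. Of the 11 genes tested in this list, 8 had higher values, with a median log2 fold change of 0.15. Ptges (-0.08), which encodes a prostaglandin E synthase, and the receptor gene Ptger4 (0.25) did not pass.

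Among genes that feed back on NF-kB, Nfkbiz, Tnfaip3 and Traf1 rose. Nfkbiz encodes a nuclear regulator that NF-kB induces and that is needed for some of its targets, and its brightest probe set had 2327, 3653 and 1277 at 10 min and 5268, 7154 and 2640 at 30 min. Experiment 3 was lowest at both times, so the groups overlapped, although the ratio of 30 to 10 min was close to the same in the 3 experiments (2.26, 1.96 and 2.07). The 3 probe sets of Nfkbiz rose by 1.06, 2.07 and 1.05. Tnfaip3, the gene of the ubiquitin-editing NF-kB inhibitor A20, had 2691, 2111 and 1143 at 10 min and 4605, 4836 and 1824 at 30 min, again overlapping through experiment 3, and rose by 0.88 (SE 0.13, adjusted p = 0.00408). Its dimmer probe set had 1.41 and did not pass (adjusted p = 0.133). Traf1, which encodes an adaptor of TNF receptors, had 382, 359 and 268 at 10 min and 1020.2, 1906 and 774 at 30 min without overlap, and rose by 1.74. A second Traf1 probe set of similar brightness gave 0.07, so the probe sets of this gene disagree.

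Of 18 tested NF-kB genes 17 had higher values, 3 rose and none fell, and the median log2 fold change was 0.23. Nfkbia, which encodes I kappa B alpha, the inhibitor that LPS signalling degrades and NF-kB then restores, was among the brightest genes of the array, with 21746, 23842 and 20833 at 10 min and 21525, 27217 and 19699.8 at 30 min. The times did not separate on this probe set (log2 fold change 0.03, SE 0.16). The other 4 Nfkbia probe sets, all dimmer, gave 0.21, 0.49, 0.53 and 0.75, in order of falling brightness, and none passed. The subunit genes Rela (0.12), Rel (0.28), Relb (0.33) and Nfkb2 (0.02) did not pass.

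The list of MAP kinase feedback genes also holds genes of other roles, such as the G protein regulator gene Rgs1 and the kinase gene Map3k8. In this list Dusp1, Dusp5 and Rgs1 rose. Dusp1 encodes a phosphatase that inactivates p38 and JNK, and had 5219, 4308 and 3098 at 10 min and 13262.5, 17093 and 11368 at 30 min. The lowest 30 min array was far above the highest 10 min array, and the rise was 1.73 (SE 0.14, adjusted p = 3.27e-06). Dusp5, the gene of a nuclear ERK phosphatase, was dim, with 145, 161 and 60.0 at 10 min and 433, 315 and 229.7 at 30 min, and rose by 1.36 (adjusted p = 0.0326). Rgs1, which encodes a regulator that shortens chemokine receptor signalling through G proteins, had 1871.5, 1540.5 and 590.4 at 10 min and 3193.5, 6825 and 2000.4 at 30 min. Its highest 10 min array and its lowest 30 min array were close together, and it rose by 1.55 (SE 0.24, adjusted p = 0.00771).

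Of 20 tested genes of the MAP kinase feedback list 14 had higher values, 3 rose, Rgs1 among them, and none fell (median 0.24). Dusp2, another nuclear MAP kinase phosphatase gene, had 96.8, 120.3 and 90.8 at 10 min and 299, 428 and 166 at 30 min, without overlap, but its log2 fold change of 1.32 (SE 0.35) did not pass (adjusted p = 0.455). Dusp4 (0.35), Dusp6 (0.41) and Spry1 (-0.67), all of which encode inhibitors of the ERK pathway, did not pass.

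Zfp36 and Btg2, the risers among 13 tested genes of mRNA decay, had the largest log2 fold changes of that list, whose median was 0.04. Zfp36 encodes tristetraprolin, a protein that binds AU-rich elements and speeds the decay of cytokine mRNAs such as that of Tnf, and had 3732, 3628 and 2009.5 at 10 min and 6387, 9429.9 and 4772 at 30 min. It rose by 1.13 (SE 0.13, adjusted p = 0.000242) without overlap. Btg2, which encodes a partner of the CCR4-NOT deadenylase, rose on the dimmer of its probe sets, from 217, 443 and 649.8 to 752, 1417 and 1142 (1.39, SE 0.21, adjusted p = 0.00495). Its brighter probe set changed by a like amount, 1.397, with a larger error (SE 0.31), and did not pass (adjusted p = 0.18). Zc3h12a (0.52), which encodes the ribonuclease Regnase-1, Zfp36l1 (0.24) and Elavl1 (0.00), which encodes an mRNA-stabilising protein, did not pass.

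Besides Btg2, the immediate early genes Ier3, Ier2 and Ppp1r15a rose. Ier3, a stress-response gene, had 3788, 2510.3 and 2358 at 10 min and 7109.6, 10288 and 7983.5 at 30 min, and all 30 min arrays were well above all 10 min arrays (1.56, SE 0.17, adjusted p = 0.000115). Ier2, which encodes a nuclear protein of the early growth response, had 1054, 661 and 665 at 10 min and 3477, 2011 and 1437 at 30 min and was one of the few risers with its highest value in experiment 1 (1.46, SE 0.21). Ppp1r15a encodes GADD34, which directs a phosphatase to the translation factor eIF2 alpha, and had 882, 773.5 and 561.5 at 10 min and 1469.7, 1815.5 and 1258 at 30 min (1.03, SE 0.17). In the list of immediate early genes other than transcription factors, 26 of 27 tested genes had higher values and the median was 0.41, with 3 rising on their brightest probe set and Btg2 on its dimmer one. Phlda1 (0.91, adjusted p = 0.0721), Gadd45a (0.81), Rhob (0.67) and Pim1 (0.61) did not pass, and Klf10 (-0.11) was the only member with a lower value.

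Of the 31 tested immediate early transcription factor genes, 25 had higher values (median 0.16). At an unadjusted limma p under 0.05, 11 of the 31 were higher, against 177 of all 12527 genes tested. None of the 31 was called by limma. This depends on the arrays in the fit: without the 20 min arrays of experiments 2 and 3, which stand apart, Egr1 (adjusted p = 0.024), Fos (0.0252) and Junb (0.0399) passed, as they did in the fit on the 6 arrays alone (0.00619, 0.0176 and 0.0033). Egr1, a zinc finger factor gene, had signals of 642, 141 and 273 at 10 min and 1804, 2136 and 976 at 30 min, so its groups did not overlap. Its mean log2 fold change was close to that of Tnf, but with its larger error it did not pass (2.34, SE 0.48, adjusted p = 0.101). Fos, which encodes an AP-1 subunit, was already bright at 10 min, with 7201, 8665 and 11971, and had 12596, 17662.5 and 16289 at 30 min. Its groups did not overlap either, and its log2 fold change of 0.76 (SE 0.16) did not pass (adjusted p = 0.13). The AP-1 genes Jun (0.69) and Junb (0.76) and the factor genes Egr2 (0.87), Nr4a1 (0.91) and Myc (0.34) did not pass. Atf3, which encodes a repressor of inflammatory genes, stayed within its spread, with 4714, 5957 and 2292 at 10 min and 4748, 5224.5 and 2707 at 30 min.

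**Figure D3:**
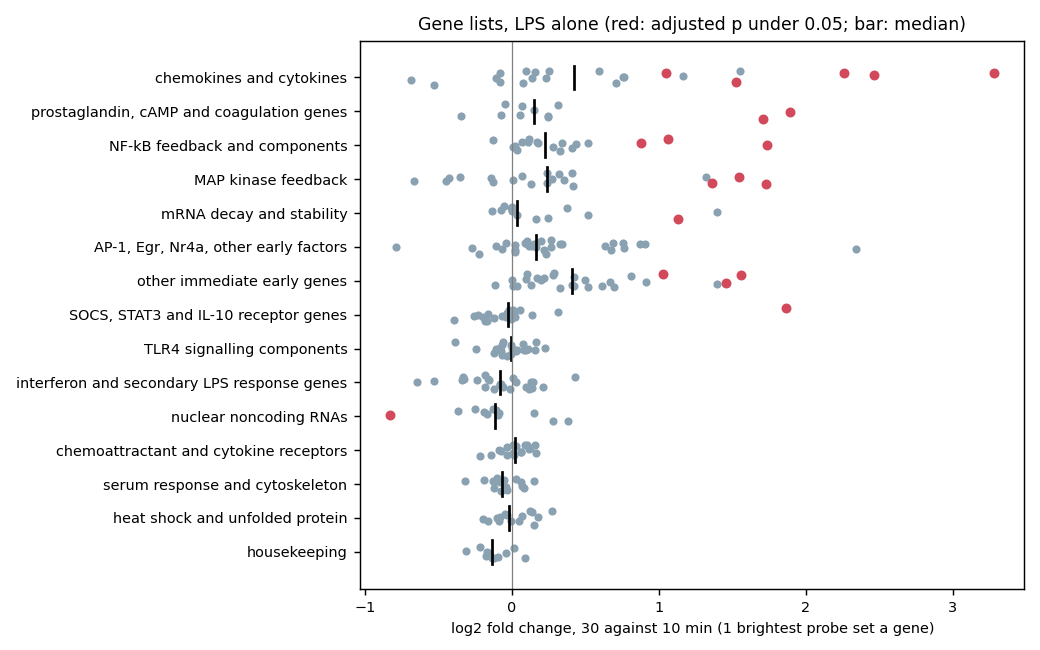
Log2 fold changes from 10 to 30 min of LPS alone for the genes of each list, 1 point for the brightest probe set of a gene, with a black bar at the list's median and red for an adjusted p under 0.05. Red points sit in the chemokine and cytokine, prostaglandin and cAMP, NF-kB, MAP kinase, mRNA decay, other immediate early and SOCS lists, all on the side of higher values, and 1, Neat1, sits among the noncoding RNAs on the lower side.

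Socs3 was the only riser among 24 tested SOCS, STAT3 and IL-10 receptor genes, and 9 of the 24 had higher values (median -0.02). Socs3 encodes an inhibitor of Janus kinase signalling from IL-6 family receptors. Its brightest probe set had 670.1, 588 and 402 at 10 min and 1827, 3469 and 1292 at 30 min, and rose by 1.87 (SE 0.24, adjusted p = 0.000926). The other Socs3 probe sets rose by 1.86 and 2.19, and on all 3 the highest 30 min array was that of experiment 2. The related genes Socs2 (-0.23), Socs5 (-0.20) and Cish (-0.26), the kinase gene Jak2 (-0.02) and Stat3 (-0.03) did not pass.

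Ccrl2, Gm6377 and the unnamed probe sets complete the risers. Ccrl2 encodes an atypical receptor that binds chemerin without signalling, and had 162, 373 and 303 at 10 min and 391, 1004 and 662 at 30 min, with the times close together where experiment 1 at 30 min meets experiment 2 at 10 min (1.23, SE 0.20, adjusted p = 0.00927). Gm6377, a predicted gene, had 425, 528 and 347 and 778, 1400.4 and 796 (1.13, SE 0.19). The 2 probe sets to which the platform annotation gives no gene rose by 1.68 and 1.32. Of 18 tested chemoattractant and cytokine receptor genes none was called and 12 had higher values (median 0.02), among them the chemokine receptor gene Ccr1 (0.10) and the complement receptor gene C5ar1 (0.09).

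Neat1, the long noncoding RNA that scaffolds nuclear paraspeckles, was the single faller. It had 4521, 6008 and 5004.5 at 10 min, 3256.5, 3483 and 4043.5 at 20 min and 2102.5, 3566 and 3224 at 30 min in experiments 1, 2 and 3. The signal was lower at 30 min in each experiment and the groups did not overlap, which held in this direction for 3.42% of tested probe sets. Neat1 was picked for its change on these same arrays, so this is no separate support. The log2 fold change was -0.83 (SE 0.14, adjusted p = 0.0155), so the mean signal at 30 min was 0.573 of that at 10 min. A dim second probe set of Neat1 had -0.17 and did not pass. The call was lost in 8 of 21 other settings, with an adjusted p of 1 without the block and 0.119, 0.256, 0.181 and 0.0816 without the 10 min array of experiment 1 or 2 or the 30 min array of experiment 1 or 3. Of 12 tested nuclear noncoding RNA genes 3 had higher values (median -0.12), with Malat1, the neighbour of Neat1, at 0.15.

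Other genes with lower values did not pass. Txnip, which encodes an inhibitor of thioredoxin and of glucose uptake, had 8252, 8454 and 6593 at 10 min and 6946, 4634 and 5048 at 30 min, a log2 fold change of -0.50 (SE 0.12, adjusted p = 0.292). Gas5 is a noncoding host of small nucleolar RNAs. A Gas5 probe set that is not the brightest of that gene went from 1390.2, 1239.9 and 967 to 792, 965 and 725 (-0.52, adjusted p = 0.421). The largest negative values belonged to dim probe sets such as those of D930048N14Rik (-2.22), Haghl (-1.88) and Nlrp6 (-1.74), whose 30 min signals were as low as 15.6, 16.5 and 2.6.

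Other lists gave no call by limma between 10 and 30 min. Over all 12527 genes tested, 177 were higher and 251 lower at an unadjusted limma p under 0.05. The 23 tested TLR4 signalling genes, which include Tlr4 itself (0.11), Myd88 (0.07) and Irak1 (-0.25), had 10 higher values and a median of -0.01. Of them 1 gene, with a higher value, had an unadjusted p under 0.05. The 25 tested interferon and secondary response genes had 9 higher values, a median of -0.08 and 1 gene, with a lower value, at that p. Ifnb1, the gene of interferon beta, was at 0.43 (from 35.5, 65.1 and 61.6 to 76.2, 106 and 54.9) and did not reach that p. Cxcl10 was at 0.14 and Ifit1 at -0.15. The 16 heat shock and unfolded protein genes and the 16 serum response and cytoskeleton genes had medians of -0.02 and -0.06, and none of them, nor of the housekeeping and receptor genes, reached it. For the 11 tested housekeeping genes the median was -0.13, with 2 of 11 values higher, and for the 14 macrophage markers it was -0.12. After quantile normalisation these last 2 medians were both -0.03 and the heat shock median was 0.05, so values this small moved with the scaling. The medians of the chemokine and cytokine genes (0.41), the other immediate early genes (0.41), the NF-kB genes (0.25) and the MAP kinase feedback genes (0.25) differed little under that scaling.

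The 20 min arrays, which took no part in the comparison of 30 with 10 min except in the estimate of spread and of the experiments' levels, lay between. In 28 of the 29 risers the mean signal at 20 min was between those at 10 and 30 min, and the 20 min array lay between the other times in 27, 28 and 25 of the 29 in experiments 1, 2 and 3. The step from 20 to 30 min was larger than that from 10 to 20 min in 20 of the 29. The risers were picked for a gap between 10 and 30 min, so a 20 min value within it follows largely from that choice. No share over all tested probe sets was computed for these counts. Dusp1 and Cxcl2 had made 76.8 and 68.5% of their log2 change by 20 min, Ier2 21.8%, Ccrl2 15.2% and Tnfsf9 2.62%. Dusp1 thus had 9898, 10595 and 10629 at 20 min, close to its 30 min value in experiment 3 but not in experiment 2, while Tnfsf9, the exception in the count of means, had 555, 401 and 341, near its 10 min values. Cxcl1 lay midway, at 917, 2195 and 965, with 53.5% of its log2 change made. Egr1, not called, peaked at 20 min in experiment 3, with 696, 556 and 1802, and was highest at 30 min in the other experiments. The 20 min arrays of experiments 2 and 3 stood apart from the rest of the series, with lower quartiles of signal of 38.6 and 34. Without them 35 probe sets rose and 1 fell, among them 28 of the 29 and Neat1.

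The experiments did not give the same size of rise. The difference between 30 and 10 min was largest in experiment 2 for 23 of the 29 risers, whereas over all tested probe sets it was largest in experiments 1, 2 and 3 in 33.4, 34 and 32.5%. Those shares take rises and falls together, so they are not a like background for risers. Over all tested probe sets the differences also spread most in experiment 2, with SDs of 0.48, 0.56 and 0.49 in experiments 1, 2 and 3. The median difference of the 29 was 1.29, 1.98 and 1.48 on the log2 scale in experiments 1, 2 and 3, and the highest 30 min array was that of experiment 2 in 25 of the 29. At 10 min the order was another: experiment 1 was highest in 16 of the 29, experiment 2 in 10 and experiment 3 in 3. The 10 min arrays of a riser differed by a factor of 1.16 to 9.44 (median 1.9) between the highest and the lowest. Without experiment 1, 2 or 3 altogether 8, 10 and 31 probe sets rose, and without the 10 min or the 30 min array of experiment 2 the counts were 19 and 17.

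Cxcl1, Cxcl2, Tnf, Dusp1, Pde4b, Ier3 and Zfp36 passed with the fixed block whichever experiment or single array was left out. With the experiment as a random block, however, Tnf did not pass (adjusted p = 0.132), nor did Ptgs2, Rgs1, Dusp5, Nfkbiz (brightest probe set), Ccl3 and Tnfaip3 (0.0943 to 0.713). Socs3 passed without any single array but not without experiment 1 or 2. Without the 30 min array of experiment 2 the brightest probe sets of Ptgs2, Traf1, Rgs1, Dusp5, Ccrl2, Gm6377, Ccl3, Ppp1r15a and Tnfaip3 and the called probe set of Btg2 did not pass (adjusted p from 0.0676 to 0.382), and without the 10 min array of experiment 2 Ptgs2, Traf1, Rgs1, Tnfsf9, Dusp5, Gm6377, Ccl3, Ppp1r15a, Tnfaip3 and Neat1 did not (0.0552 to 0.517). Leaving out experiment 1 or experiment 2 each ended the call of 15 of the 22 named genes, Neat1 among them, and leaving out experiment 3 that of 6 (Ptgs2, Dusp5, Ccrl2, Gm6377, Ccl3 and Ppp1r15a). All 29 risers kept a positive log2 fold change in every one of these fits. That follows largely from their being higher in each experiment and is no separate sign of stability. Dusp5, the weakest call, passed in 7 of 20 other settings, Ptgs2 in 10 of 21, and Ccl3 and Ppp1r15a in 11 of 21.

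**Figure D4:**
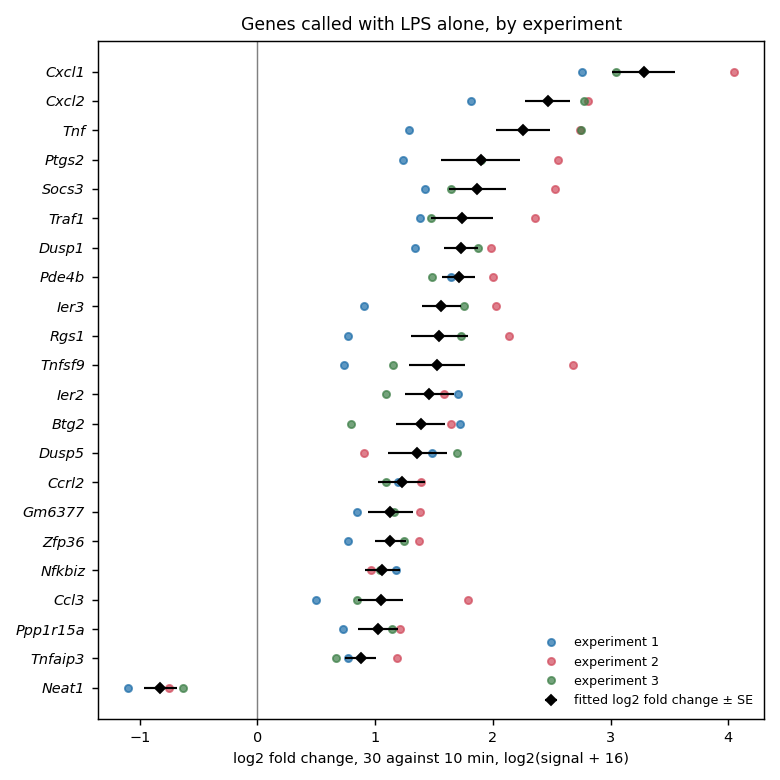
Log2 fold changes from 10 to 30 min of LPS alone for the called genes, with a black diamond and bar for the fitted value ± SE and a coloured point for each experiment. Cxcl1 is at the top with 3.28 and Neat1 at the bottom with -0.83, and the points of experiment 2 are the rightmost in most rows.

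The change under LPS alone was set against the change over the same time with LPS plus IL-10, in other cultures of the same experiments. The values of the called genes lay close together for Cxcl2 (2.46 with LPS alone and 2.33 with IL-10), Dusp1 (1.73 and 1.71), Pde4b (1.71 and 1.87), Ptgs2 (1.90 and 1.96) and Ppp1r15a (1.03 and 1.08). They were higher with LPS alone for Cxcl1 (3.28 and 1.95), Tnf (2.26 and 1.15), Rgs1 (1.55 and 0.52) and Ccrl2 (1.23 and 0.39), but the differences of 1.33 (SE 0.38), 1.11 (SE 0.33), 1.03 (SE 0.35) and 0.84 (SE 0.28) did not pass the test of the difference (limma adjusted p = 1 for each). Socs3 was the called gene whose change differed: it rose by 1.87 with LPS alone and by 4.31 with LPS plus IL-10, a difference of -2.45 (adjusted p = 0.0171). Over all 27110 probe sets, 5 changed less with LPS alone than with LPS plus IL-10 (0.0184%) and limma called none that changed more. At an unadjusted p under 0.05 the same test gave 317 and 346 probe sets, together a smaller share than that threshold would give without any difference. Without the block 1 probe set passed this test, and without experiment 1, 2 or 3 it was 0, 2 and 3. Among the 29 risers the change was larger with LPS alone in 17. The 29 were picked for their change with LPS alone, which favours larger values there, and no share over all probe sets was computed. The same choice bears on the values of Cxcl1, Tnf, Rgs1 and Ccrl2.

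**Figure D5:**
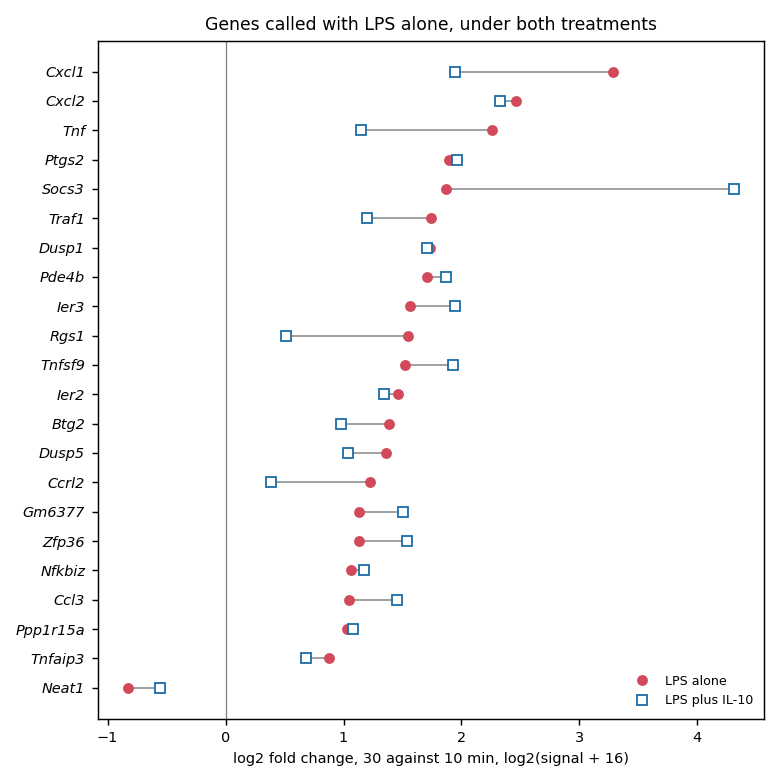
Log2 fold changes from 10 to 30 min for the genes called with LPS alone (red circles) and for the same genes with LPS plus IL-10 (open blue squares), joined by a grey line. Most pairs lie near each other; Socs3 is far to the right with LPS plus IL-10 (4.31 against 1.87), and Cxcl1, Tnf, Rgs1 and Ccrl2 are to the right with LPS alone.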

How the data were processed

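Total RNA was extracted with Trizol and biotin-labelled cRNA was hybridised to Affymetrix arrays, per the labels' protocols. The authors deposited 1 linear intensity per probe set and array, using GCOS 1.4 according to the submitters' processing notes, and no source used here names the signal algorithm or its settings. No detection calls were used, so a dim signal cannot be told from background, and arrays scaled to a like mean hide a change of total RNA per cell. In bulk RNA, a change in the number of cells of a type and a change of RNA per cell cannot be told apart. Precision is limited by having 3 arrays in each group.

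Intensities were turned into log2(signal + 16). Of 45101 probe sets, 64 controls were left out, and the 27110 at or above the median signal of 3 or more of the 18 arrays were tested. Gene names are those of GEO's platform annotation and may be outdated: 34958 probe sets had 1 gene symbol, 932 several and 9211 none, and the last 2 kinds stay unnamed. A gene's representative is its brightest probe set (12527 genes). A linear model in limma 3.58.1 (R 4.3.3; lmFit, then eBayes with intensity-dependent moderation) took all 18 arrays, with a mean for each group and the replicate number as a fixed block (10 residual degrees of freedom). Two-sided p-values were adjusted by Benjamini-Hochberg over the tested probe sets, and 0.05 was the threshold. The script was tested on simulated data.

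The replicate number was used as a block because the labels make each number an experiment and the comparison is defined as paired by number. The data were checked: deviations from group means correlated at 0.361 to 0.558 in the 3 pairs of LPS arrays at 10 and 30 min with the same number, and at -0.382 to 0.002 in the 6 pairs with other numbers. Deviations cancel within a group of 3 arrays, so positive values for the same number bring negative ones for other numbers. The second range is therefore not separate evidence of pairing. The 2 time points of an experiment were separate cultures, as far as the labels say. Duplicated arrays were looked for, and no 2 arrays shared more than 104 equal values (153 pairs).

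The genes named are the called genes, up to 4 members of each list with the largest change, up to 8 genes in each direction nearest to passing, up to 5 in each direction for the difference between treatments, and a fixed panel; other list members named as examples were picked after their values were seen. The comparison, the gene lists and the panel were chosen with earlier results of these data known. Promoter sequences are RefSeq's (GRCm38.p6). Other settings tried were no block, a random block, only the 6 arrays, quantile normalisation, pseudocounts of 1 and 64, other filters, no intensity trend, robust moderation, a threshold of 0.1, and leaving out experiments or arrays.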

Additional observations from a re-analysis of the deposited data

Results flagged for a closer look

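For 5 probe sets of 3 genes the change from 10 to 30 min differed between LPS alone and LPS plus IL-10 by the test of the difference itself (limma with the experiment as a block, adjusted p under 0.05), and each changed less with LPS alone. Differences are given as the log2 change with LPS alone minus that with LPS plus IL-10. For Sbno2, which encodes a co-repressor, the difference was -2.35 on the brightest probe set, whose signals with LPS alone were 367.2, 564.5 and 331.3 at 10 min and 309.4, 440.9 and 350.5 at 30 min, against 1993.6, 2480.0 and 1976.7 at 30 min with IL-10. It was -1.55 on another Sbno2 probe set, while the other 2 gave -1.77 and -0.34 and did not pass (adjusted p = 0.178 and 1). For Socs3 it was -2.45 and -2.13 on 2 probe sets, both of which also rose with LPS alone, and -2.09 on the third, which did not pass (adjusted p = 0.0503). For Etv3, an ETS-family repressor gene, it was -1.39 on its third-brightest probe set, which had 659.5, 725.2 and 388.4 at 10 min and 913.1, 1267.9 and 577.0 at 30 min with LPS alone, overlapping groups that gave no call. That is the largest of its 4 differences: the brightest Etv3 probe set gave -0.66 (adjusted p = 1) and the others -0.85 (adjusted p = 0.0503) and -0.05, and none of these passed. Sbno2 and Etv3 are the genes the series is about, so they are not independent evidence.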

How the results depend on the processing

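The main counts were 29 probe sets that rose, 1 that fell and 5 that differed between treatments. Without the replicate block they were 5, 0 and 1. A random block in place of the fixed one gave 21, 1 and 2. The fit on only the 6 arrays compared gave 52 and 3, on 2 residual degrees of freedom, and called all 29 and Neat1. Without an intensity trend the counts were 15, 2 and 1, and Neat1 was not among the 2. The count of differences was 3 after quantile normalisation, 2 with a pseudocount of 1 and 1 with robust moderation. The other settings (pseudocount 64, no filter, the 75th percentile, a filter on the 6 arrays, a threshold of 0.1, 1 probe set a gene) gave 20 to 35 risers and 1 faller. Leaving out 1 experiment or 1 array gave 8 to 31 risers and 0 to 2 fallers, and leaving out an experiment 0 to 3 differences. The cause was not tested.

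No called gene reversed, which follows largely from each having the same sign in all 3 experiments. Of genes not called, Atf3 reversed after quantile normalisation (-0.0057, from 0.02), and 6 did when an experiment or array was left out: Atf3 ranged from -0.12 to 0.12, Pde4a from -0.19 to 0.63, the brightest Nfkbia probe set from -0.098 to 0.11, Cish from -0.56 to 0.042, Meg3 from -0.85 to 0.14 and Sbno2 from -0.33 to 0.0045. Genes not called passed under other settings: Egr1, Il1b, Phlda1, Junb, Fos, Rbm39, Il10 and Rhob on the 6 arrays (adjusted p from 0.0033 to 0.0479), Egr1, Fos, Junb and Id2 without the 20 min arrays of experiments 2 and 3 (0.024 to 0.0476), Fos and Phlda1 after quantile normalisation (0.00715 and 0.0418), Il1b, Id2 and Rbm39 with a pseudocount of 64 (0.0294 to 0.0493), Rbm39 with the 75th percentile filter (0.0485), Mcmbp, lower, without an intensity trend (0.0347), Egr1, Phlda1 and Fos without experiment 3 (0.000769 to 0.0158), Jun without the 30 min array of experiment 1 (0.0103), and Phlda1 and, lower, Haghl without that of experiment 3 (0.0195 and 0.0107). Dim probe sets have no reliable order.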
